A study of Mus musculus with 2 samples.

Results

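The 6 genes described here were Des, Synm, Sync, Plec, Flnc and Vcl, chosen by name out of the 35163 genes measured because their proteins link the contractile apparatus of skeletal muscle to the cell membrane. Single myofibers were released by collagenase from the FDB (flexor digitorum brevis), which bends the toes and holds mostly fast fibers. They came from 1 untreated adult C57BL/6J mouse older than 3 months and were placed into plates by large particle flow sorting. The published study reports male mice of C57BL/6J and DBA2 backgrounds. Whole myofibers and fragments from muscle cut before digestion (a pseudo-biopsy) were profiled on 2 sequencing lanes with mcSCRB-seq. This plate-based scRNA-seq method counts each captured mRNA molecule once by its unique molecular identifier (UMI). The cells carried 8 library index labels, and each was taken here as 1 plate, which the labels do not state. The genes were followed in the 171 of 763 cells that had more than 5000 genes with a count and less than 20% of counts from mitochondrial genes. Each passing cell was classed by the most abundant of Myh1, Myh2, Myh4, Myh7 and Myh8, the myosin heavy chain genes that define fiber types, which gave 117 fast 2X cells (Myh1), 51 fast 2A cells (Myh2), 2 slow cells (Myh7) and 1 fast 2B cell (Myh4). All cells came from 1 mouse, so the classes had no biological replicates, no p-value was computed, and the 95% limits given below cover counting error only.

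The costamere is the protein lattice that anchors the Z-disc of the outermost myofibrils to the sarcolemma and through it to the matrix around the fiber. Desmin is the main intermediate filament protein of mature muscle and wraps each myofibril at the Z-disc, tying neighboring myofibrils to one another, to the nuclei, to the mitochondria and to the costamere. Mutations in the genes for desmin, filamin C and plectin are known causes of myofibrillar myopathies, in which Z-discs come apart and proteins aggregate.

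The passing cells held between 28827 and 1542996 counts, with a median of 239581, and the cell barcodes of the lanes did not overlap when read together with the plate index (0 shared). All 7 myofiber markers looked for (Ttn, Acta1, Ckm, Neb, Tnnt3, Pvalb and Atp2a1) had counts in 171 of 171 cells. However, 8 cells stood apart by their summed level of these markers, at 23938 to 39514 CPM (a cell's counts scaled to a total of 1000000) against 90544 to 176671 CPM in the other 163. These were 6 fast 2X cells, 1 fast 2A cell and the fast 2B cell, and 1 of them was a fragment. Their summed markers of other cell types were higher, with medians of 1533 against 23.8 CPM for 6 fibroblast genes, 762 against 166 CPM for 8 smooth muscle and pericyte genes, 723 against 101 CPM for 6 endothelial genes and 246 against 8.42 CPM for 4 Schwann cell genes. The medians were 47.2 against 11.0 CPM for 4 satellite cell genes and 29.3 against 6.15 CPM for 4 immune genes. These 8 cells were kept as the filters left them, the class ratios are given with and without them, and the part of the other cell types in the values was not tested.

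All 6 genes were detected, from 20.1 CPM over all passing cells for Sync to 2027 CPM for Des. Comparing genes per kilobase of annotated exon, Des was the highest at 540 CPM per kilobase, followed by Flnc at 163, Synm at 97.9, Plec at 57.6, Sync at 7.03 and Vcl at 6.68. Des was above Flnc on this scale in 171 of 171 cells, Flnc was above Synm in 143, Synm was above Plec in 133 and Plec was above Sync in 170. On this scale Sync and Vcl could not be ordered, since their 95% limits overlapped (6.61 to 7.47 for Sync and 6.44 to 6.93 for Vcl) and Sync was above Vcl in 77 of 171 cells. By CPM alone Vcl was above Sync, at 54.8 (52.8 to 56.8) against 20.1 (18.9 to 21.4). Plec, at 1044 CPM, was then above Synm, at 777 CPM. Because molecules were captured at the poly(A) tail, dividing by length favors short genes such as Des, with 3.75 kilobases of exon, over long ones such as Plec, with 18.1.

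**Figure D1:**
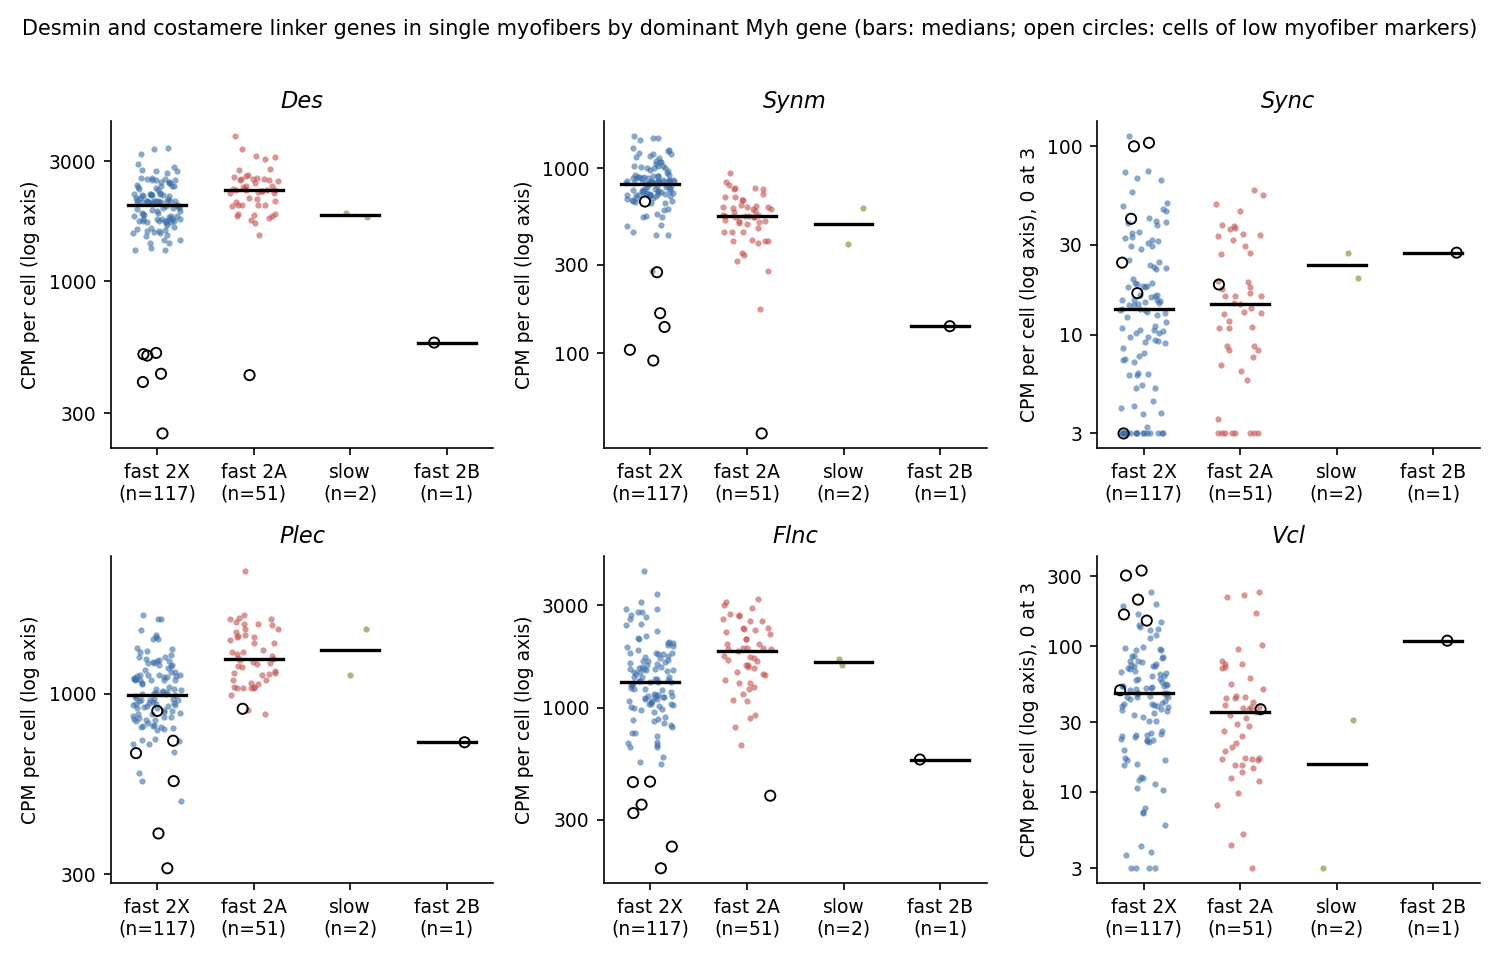
CPM of each gene in every passing cell (log axis, a count of 0 drawn at 3 CPM), by fiber class. Black bars are medians and open circles are the 8 cells of low myofiber markers. Synm is shifted down and Plec and Flnc are shifted up in fast 2A cells, and the 8 open circles are the lowest cells for Des.

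The promoters of Des, Synm, Flnc and Vcl are shown for the main filament gene, its partner with the largest class difference among the 6, and the genes of the actin crosslinker and the integrin linker. The windows run from 250 bases before to 50 bases after the RefSeq transcription start in GRCm38.p6, 5′ to 3′ on the strand of the gene, and 5 of the 6 genes had an entry (Plec had none). Capitals mark matches to motifs that occur in muscle gene promoters. The E-box (CANNTG) is bound by bHLH factors, the myogenic ones among them. The MCAT element (CATTCC) is bound by TEAD factors and the CArG box by serum response factor. Both strands were searched, also for the MEF2 motif, and the matches did not overlap one another. Des lies at chr1:75360329-75368579 (plus strand), with its window at chr1:75360042-75360341. Synm lies at chr7:67730160-67759742 (minus strand), with its window at chr7:67759693-67759992. Flnc lies at chr6:29433256-29461883 (plus strand), with the window of its second listed start at chr6:29433006-29433305. Vcl lies at chr14:20929398-21033676 (plus strand), with its window at chr14:20929148-20929447.
Des promoter: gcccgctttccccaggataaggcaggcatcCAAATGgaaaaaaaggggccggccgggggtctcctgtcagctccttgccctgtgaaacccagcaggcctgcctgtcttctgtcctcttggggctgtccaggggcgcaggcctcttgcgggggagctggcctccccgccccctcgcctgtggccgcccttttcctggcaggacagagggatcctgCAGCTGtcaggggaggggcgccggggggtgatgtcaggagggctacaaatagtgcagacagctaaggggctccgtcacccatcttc
Synm promoter: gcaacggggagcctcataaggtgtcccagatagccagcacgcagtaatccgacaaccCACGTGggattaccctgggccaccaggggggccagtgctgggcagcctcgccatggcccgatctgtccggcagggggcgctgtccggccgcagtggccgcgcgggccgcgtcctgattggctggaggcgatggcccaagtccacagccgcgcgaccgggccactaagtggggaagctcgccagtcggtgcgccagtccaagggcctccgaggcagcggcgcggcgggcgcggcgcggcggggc
Flnc promoter: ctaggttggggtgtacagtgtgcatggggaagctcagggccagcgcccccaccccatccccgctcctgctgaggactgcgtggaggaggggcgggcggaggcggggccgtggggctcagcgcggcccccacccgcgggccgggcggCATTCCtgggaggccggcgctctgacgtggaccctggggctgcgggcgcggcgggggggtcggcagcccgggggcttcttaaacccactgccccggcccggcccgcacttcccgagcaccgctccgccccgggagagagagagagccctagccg
Vcl promoter: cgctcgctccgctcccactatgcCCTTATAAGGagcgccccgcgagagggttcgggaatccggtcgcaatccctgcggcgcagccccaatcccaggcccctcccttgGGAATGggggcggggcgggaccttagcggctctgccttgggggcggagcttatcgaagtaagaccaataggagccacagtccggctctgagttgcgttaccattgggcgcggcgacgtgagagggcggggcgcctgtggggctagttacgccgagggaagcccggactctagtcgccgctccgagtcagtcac
The Des window held 2 E-boxes, the nearer one 36 bases before the start. The Synm window held 1, CACGTG, and which bHLH factors could bind it was not tested. The Flnc window held 1 MCAT element 104 bases before the start. The Vcl window held 1 MCAT element, read as GGAATG from the other strand, and 1 CArG box. The Sync window, not shown, held 2 E-boxes. Over all 32851 promoter windows, 72.3% held an E-box, 14.7% an MCAT element, 1.63% a CArG box and 3.19% a MEF2 motif, and a match describes the letters of the window and no binding. The windows were rich in G and C, at 65.3% for Des, 72.7% for Synm, 76.3% for Flnc and 66.7% for Vcl, against a median of 52.7%.

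Fast 2A and fast 2X myofibers were compared to ask whether the linker genes follow the fiber type set by the myosin genes. Plec and Flnc were higher in fast 2A cells, Synm was lower and Des was close to even. Sync and Vcl had lower summed values in fast 2A, but 3 of 8 plates went the other way for each, so both stayed uncertain. Only Synm differed by more than 1.5-fold (a log2 ratio past 0.585 in either direction), 1 of 6 genes, where 10.0% of the 8744 genes with at least 500 summed counts did (2.57% higher and 7.43% lower in fast 2A). The median log2 ratio over those genes was -0.09. TMM scaling, which evens out the bulk of genes, moved every ratio up by 0.11 and took Synm inside 1.5-fold, at -0.53.

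**Figure D2:**
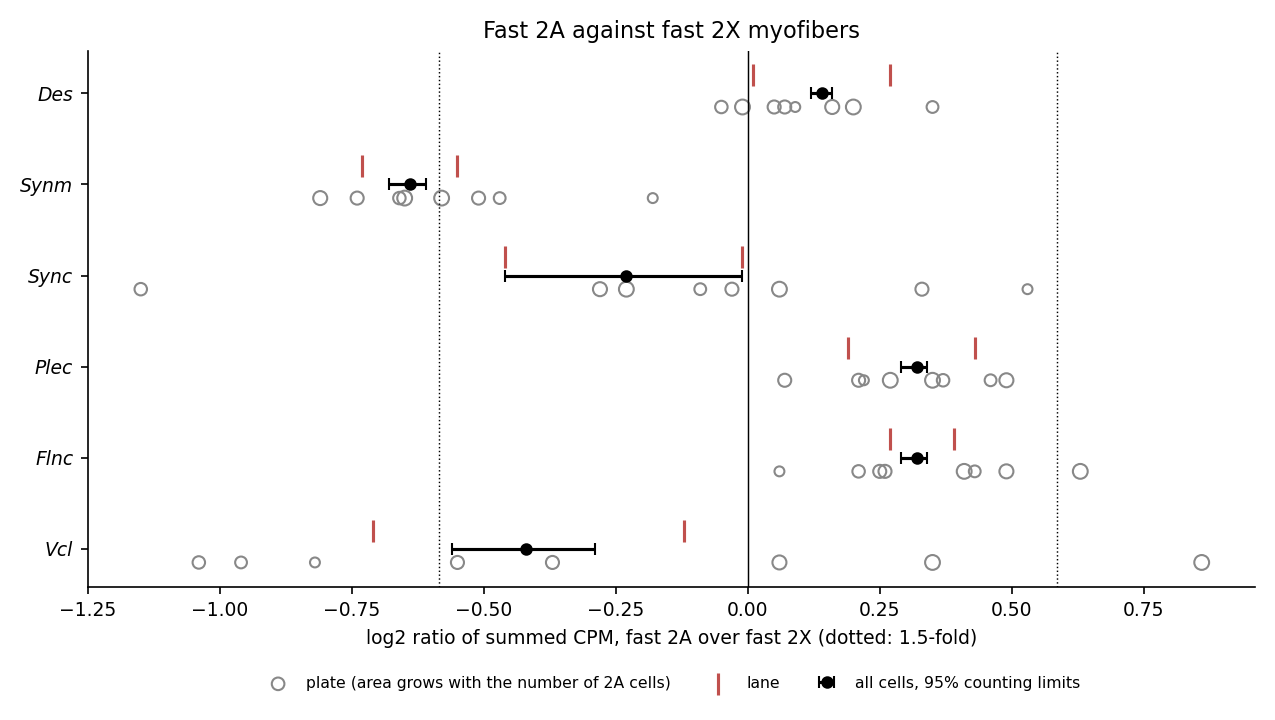
Log2 ratio of summed CPM in fast 2A over fast 2X cells for the 6 genes. Black points are all cells with 95% counting limits, red ticks are the 2 lanes, open circles are the 8 plates and dotted lines mark 1.5-fold. All 8 plates lie below 0 for Synm and above 0 for Plec and Flnc, while the plates of Sync and Vcl lie on both sides.

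Among the intermediate filament genes, Des, which encodes desmin itself, had 2193 CPM over the fast 2A cells (95% limits 2167 to 2220) and 1989 CPM over the fast 2X cells (1975 to 2003). Single fast 2A cells lay between 425 and 3790 CPM with a median of 2302, and fast 2X cells between 249 and 3389 CPM with a median of 2011. The slow cells held 1878 and 1809 CPM and the fast 2B cell held 572 CPM. The ranges overlapped widely, although 38 of 51 fast 2A cells were above the fast 2X median. The log2 ratio was 0.14 (0.12 to 0.16), and 0.13 without the 8 cells of low myofiber markers. It was 0.01 in lane 1 and 0.27 in lane 2, and over plates it ran from -0.05 to 0.35, so that its direction held in 6 of 8 plates. The lane 1 value did not differ from 0 beyond counting error (-0.01 to 0.04).

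Synm encodes synemin, an intermediate filament protein that cannot form filaments alone and joins desmin filaments while binding dystrophin, vinculin and alpha-actinin. It had 547 CPM in fast 2A cells (534 to 561) and 856 CPM in fast 2X cells (847 to 865). Fast 2A cells ran from 36.9 to 936 CPM with a median of 553, and fast 2X cells from 91.4 to 1497 CPM with a median of 818. The slow cells, at 391 and 606 CPM, lay within the fast 2A range, and the fast 2B cell held 140 CPM. Only 2 of 51 fast 2A cells were above the fast 2X median, while 104 of 117 fast 2X cells were above the fast 2A median. The log2 ratio was -0.64 (-0.68 to -0.61), 1.56-fold lower in fast 2A, and it was -0.66 without the 8 cells. Synm was lower in fast 2A cells in 8 of 8 plates, at -0.81 to -0.18, where the smallest difference came from a plate with 2 fast 2A cells.

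Sync encodes syncoilin, a further intermediate filament protein, which binds alpha-dystrobrevin of the dystrophin complex and desmin. It was low, with 17.6 CPM in fast 2A (15.3 to 20.2) and 20.8 CPM in fast 2X cells (19.3 to 22.2). Single cells ran from 0 to 58.7 CPM in fast 2A (median 14.6) and from 0 to 113 CPM in fast 2X (median 13.7). The slow cells held 27.2 and 19.9 CPM and the fast 2B cell held 27.2 CPM. A count was found in 144 of 171 cells (84.2%, exact Clopper-Pearson limits 77.9 to 89.3), and in 65 of 171 (38.0%) after every cell was thinned to 28827 counts. The thinned share was 41.2% in fast 2A (27.6 to 55.8) and 35.9% in fast 2X cells (27.2 to 45.3), so that a difference was not detectable at this depth. No cell type that lacks Sync or Vcl was among the cells, so the counts that free RNA gives were not measured. The log2 ratio was -0.23 (-0.46 to -0.01), and -0.22 without the 8 cells, but it was 0.20 over thinned counts and 3 of 8 plates had the opposite direction. A single plate gave the most negative value, -1.15.

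Plec encodes plectin, the giant cytolinker that fastens desmin filaments to Z-discs, costameres, nuclei and mitochondria through different isoforms. Its gene lies at chr15:76170974-76232574 on the minus strand with 22 annotated transcripts, and the counts did not separate isoforms. It had 1229 CPM in fast 2A cells (1209 to 1249) and 988 CPM in fast 2X cells (978 to 997). Fast 2A cells lay between 871 and 2275 CPM with a median of 1265, and fast 2X cells between 312 and 1688 CPM with a median of 993. The slow cells, at 1132 and 1540 CPM, were both above the fast 2X median, and the fast 2B cell was below it at 724 CPM. The ranges overlapped, and 47 of 51 fast 2A cells were above the fast 2X median. The log2 ratio was 0.32 (0.29 to 0.34) and 0.31 without the 8 cells. Plec was higher in fast 2A cells in 8 of 8 plates, at 0.07 to 0.49.

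Flnc encodes filamin C, the muscle filamin that crosslinks actin at the Z-disc and binds sarcoglycans at the sarcolemma. It had 1810 CPM in fast 2A cells (1786 to 1834) and 1454 CPM in fast 2X cells (1442 to 1466). Fast 2A cells ran from 388 to 3221 CPM with a median of 1827, and fast 2X cells from 178 to 4359 CPM with a median of 1319. The slow cells held 1587 and 1679 CPM and the fast 2B cell held 572 CPM. The classes overlapped over most of their range, and the highest cell of all was fast 2X. The log2 ratio was 0.32 (0.29 to 0.34), or 0.30 without the 8 cells, and 39 of 51 fast 2A cells were above the fast 2X median. It was positive in 8 of 8 plates, at 0.06 to 0.63.

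Vcl encodes vinculin, which couples talin and the integrins to actin at the costamere. It had 43.4 CPM in fast 2A cells (39.8 to 47.3) and 58.3 CPM in fast 2X cells (55.9 to 60.7). Fast 2A cells ran from 0 to 234 CPM with a median of 35.1, and fast 2X cells from 0 to 330 CPM with a median of 47.4. The slow cells held 31.3 and 0 CPM and the fast 2B cell held 109 CPM. A count was found in 165 of 171 cells (96.5%), and after thinning in 54.9% of fast 2A (40.3 to 68.9) and 72.6% of fast 2X cells (63.6 to 80.5). The log2 ratio was -0.42 (-0.56 to -0.29) and -0.37 without the 8 cells. It was -0.71 in lane 1 and -0.12 in lane 2, where the limits reached from -0.32 to 0.07, and plates ran from -1.04 to 0.86, with 3 of 8 higher in fast 2A.

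Several of these genes share exonic bases with a neighbor in the GENCODE vM21 annotation, and whether counting used strand was not given in the sources used here. Vcl shares 2090 exonic bases at its 3′ end with Ap3m1 on the other strand and Sync shares 782 with Rbbp4, so the levels of Vcl and Sync are uncertain. Ap3m1 had 12.0 CPM with a log2 ratio of -0.47 and Rbbp4 had 42.5 CPM with a log2 ratio of -0.16. Des shares 220 bases with the antisense gene Gm15179 (29.8 CPM), Synm shares 84 with Ttc23 (72.0 CPM) and Plec shares 205 with Parp10 on the same strand (3.00 CPM). Apart from Plec, where 0.772% of 66-base stretches (the read length) also occurred in Parp10, no such stretch was found in the transcripts of another gene read on their own strand. The opposite strand, which holds the neighbors that share exonic bases with Vcl, Sync, Des and Synm, was not searched.

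The classes divide a continuous range, since most cells carried both Myh1 and Myh2, and levels were also followed along the Myh2 share of the Myh1 and Myh2 counts. Synm stepped down through all 5 ranges, from 920 CPM in the 48 cells under 20% to 816, 686, 572 and 519 CPM in the 24 cells at 75% and over. Plec went from 937 CPM to 978, 1134, 1246 and 1208 CPM over the same ranges, so that the range from 30 to 50%, where Myh1 still outnumbered Myh2, already held more than the range under 20%. Flnc had no such steps, with 1536, 1297 and 1402 CPM below a share of 50% and 1808 and 1812 CPM above it. Des went from 1994 CPM to 2084, 1819, 2207 and 2178 CPM, and without the 8 cells the value of the middle range was 1933 CPM. Vcl was 61.3 CPM in the lowest and 30.3 CPM in the highest range, with 52.5 to 56.3 CPM between. Sync stayed between 17.0 and 23.1 CPM.

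**Figure D3:**
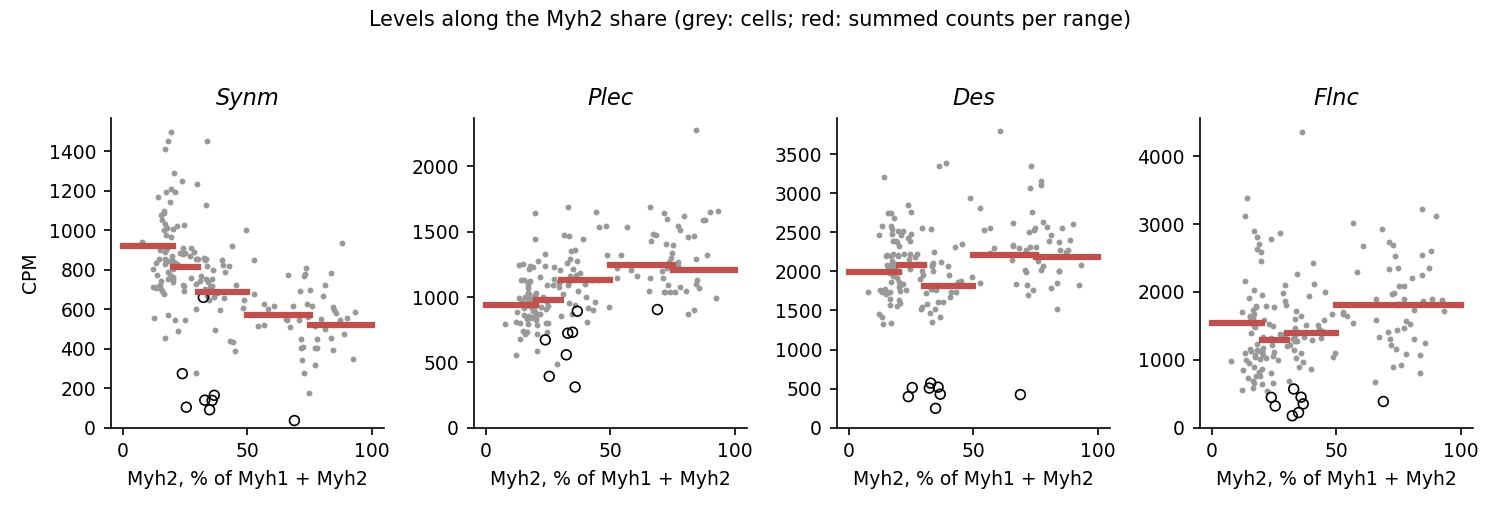
CPM of Synm, Plec, Des and Flnc in each passing cell (grey, with the 8 cells of low myofiber markers as open circles) against the percent of Myh2 among Myh1 and Myh2 counts. Red bars are the summed CPM in 5 ranges of that share. The Synm bars step down from 920 to 519 CPM and the Plec bars go from 937 to 1246 CPM before the last range.

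Over the 171 cells the Spearman correlation with the Myh2 share was -0.57 for Synm, 0.52 for Plec, 0.24 for Flnc, 0.19 for Des, -0.21 for Vcl and 0.05 for Sync. Within the 111 fast 2X cells left after removing those of low myofiber markers, it was -0.25 for Synm and 0.38 for Plec, and between -0.14 and 0.07 for the other 4. Correlations across cells of 1 mouse that share libraries and differ in depth are given as descriptions.

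Cells of a class differed in these genes by more than counting error for all 6, with very unequal spread. In fast 2X cells the coefficient of variation beyond counting error was 16.4% for Des and 17.2% for Plec, below the median of 27.7% over 991 genes of enough depth. It was 26.8% for Synm, near that median, and 35.7% for Flnc, 48.2% for Vcl and 66.4% for Sync. Fast 2A cells gave 14.2% for Des, 14.4% for Plec, 22.6% for Synm, 31.5% for Flnc, 59.3% for Sync and 74.0% for Vcl, beside a median of 24.5% over 252 genes. Sync and Vcl had median counts of 3 and 10 in fast 2X and 3 and 7 in fast 2A cells, too few to set them against these medians. This coefficient of variation compares counts, so that deep cells weigh more. Without the cells of low myofiber markers it was 15.6% for Des and 35.0% for Flnc in fast 2X cells. With every cell weighing the same, fast 2X cells had 1976 ± 543 CPM of Des (mean and SD over 117 cells) and 2059 ± 417 CPM without these cells, and the highest cell was 13.6 times the lowest with them and 2.55 times without them.

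The 8 cells of low myofiber markers split the genes. These cells were the 8 lowest of 171 for Des, at 249 to 572 CPM against 1330 to 3790 CPM in the others, with no overlap. They included 7 of the 8 lowest cells for Flnc, at 178 to 572 CPM against 546 to 4359 CPM, and 7 of the 8 lowest for Synm, at 36.9 to 660 CPM against 174 to 1497 CPM. For Plec they held 4 of the lowest 8 places, at 312 to 905 CPM against 490 to 2275 CPM. Vcl, which is expressed in most adherent cells, was instead higher, with a median of 157 CPM (36.9 to 330) against 40.1 CPM (0 to 237), and 3 of its 8 highest cells were among them. Sync had a median of 25.7 against 13.7 CPM, with 2 of its 8 highest cells. Desmin and synemin are also made in smooth muscle, whose marker sum was higher in these cells.

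**Figure D4:**
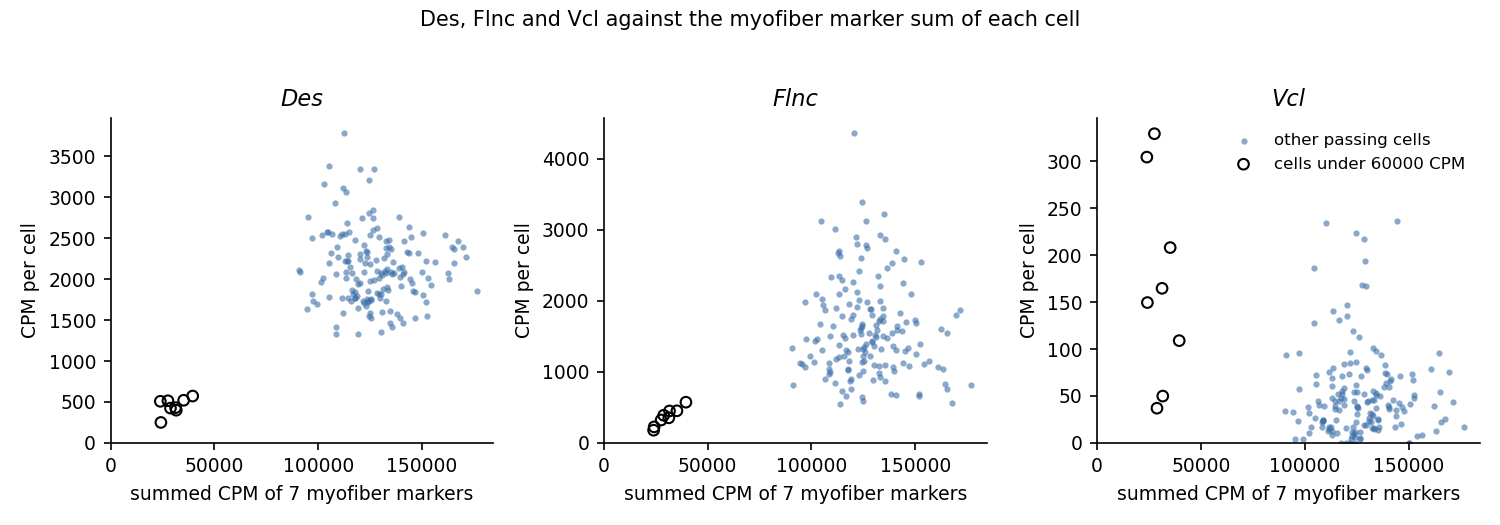
CPM of Des, Flnc and Vcl per cell against the summed CPM of 7 myofiber markers in the same cell. Open circles are the 8 cells under 60000 CPM, which lie low for Des and Flnc and reach 330 CPM for Vcl, above the 237 CPM of the highest other cell.

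The levels of all 6 genes differed between the kept cells and the 592 cells left out. Those left out had more mitochondrial counts (median 48.0% against 5.96% of a cell's counts) and fewer genes (median 2657.5 against 12240). How far either accounts for the levels was not tested. Des had 2027 CPM in the kept cells and 641 CPM in those left out, Synm 777 and 245 CPM, Flnc 1533 and 476 CPM, Plec 1044 and 447 CPM, Sync 20.1 and 9.04 CPM, and Vcl 54.8 and 36.4 CPM. All 6 were more than 1.5-fold higher in kept cells, as were 67.5% of the 9765 genes tested (5.57% were lower, 73.1% past the fold in either direction), so that this says nothing particular about them. Without the 8 cells of low myofiber markers the log2 ratio of Vcl was 0.54, inside 1.5-fold, and those of the other 5 were between 1.14 and 1.70. With mitochondrial genes out of the totals, the log2 ratios were 0.68 for Des, 0.68 for Synm and 0.70 for Flnc, past 1.5-fold as for 12.9% of genes on the higher side (26.5% were past it on the lower side, 39.4% in either direction). They were 0.24 for Plec (940 CPM in the cells left out), 0.17 for Sync and -0.40 for Vcl, which was then higher in the cells left out, at 76.7 against 58.2 CPM. Des still had a count in 558 of the 592 cells left out (94.3%), and among the cells left out it had 1373 CPM in the 90 fragments and 1344 CPM in the 502 whole myofibers, with mitochondrial genes out of the totals.

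Across the 171 cells, the Spearman correlations were 0.50 for Des and Plec, 0.48 for Des and Flnc and 0.40 for Plec and Flnc. Without the 8 cells these were 0.43, 0.40 and 0.32. Over thinned counts they were 0.28, 0.40 and 0.32, and within the fast 2X cells without those of low myofiber markers 0.38, 0.27 and 0.20. Synm was at 0.03 with Des and -0.16 with Plec, or -0.11 and -0.30 without the 8 cells. Within fast 2X cells it was at 0.20 with Des and 0.12 with Plec, or 0.07 and -0.01 without those of low myofiber markers.

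The genes most like each member over the 171 cells were ranked among the 1385 with at least 5000 summed counts. For Des they were Tpm2, the beta-tropomyosin gene (0.55), Hspb7, a small heat shock protein of muscle that binds filamin C (0.54), and Twf2, an actin monomer binding protein (0.52). Within fast 2X cells alone none of these stayed in the first 3, which were Atp2a1, the fast calcium pump (0.62), and the glycolytic genes Gapdh (0.61) and Pkm (0.59). Atp2a1, a marker that is low in the 8 cells, was at 0.56 after they were left out.

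Synm was most like Myh1, the fast 2X myosin (0.78), Myh8, the neonatal myosin (0.69), and Casq1, the calcium buffer of the fast sarcoplasmic reticulum (0.64). Myh1 was also first within fast 2X cells (0.66), and Ryr1, the calcium release channel, was at 0.55. Without the cells of low myofiber markers these were 0.61 and 0.48. Plec was most like Myh2, the fast 2A myosin (0.60), Actn2, an alpha-actinin of the Z-disc (0.57), and Ldhb, the heart-type lactate dehydrogenase subunit (0.56). Myh2 was first within fast 2X cells too (0.54), with Hsp90ab1, a chaperone (0.49), and Des (0.46) next. After the cells of low myofiber markers were left out, Myh2 was at 0.47 and Hsp90ab1 at 0.41. Des, at 0.38, then came behind Myh4, at 0.39. Myh1 and Myh2 define the classes, so that over all cells these likenesses and the class ratios draw on the same counts.

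Flnc was most like Cx3cr1 (0.73), Twf2 (0.70) and Tnfrsf12a, the receptor of the cytokine TWEAK (0.66), and within fast 2X cells like Cx3cr1 (0.69), Klhl40, a muscle protein that stabilizes thin filament components (0.67), and Twf2 (0.65). Cx3cr1 is known as a chemokine receptor of macrophages and microglia, yet it had 23843 counts in 171 of 171 cells, at 459 CPM, while the immune genes Ptprc, Cd68, Adgre1 and Cd74 had 3.43, 2.10, 4.60 and 1.04 CPM. The annotated span of Cx3cr1, chr9:119901616-120069879 on the minus strand, holds the protein-coding genes Gorasp1, Csrnp1 and Xirp1 on the same strand. Xirp1, at chr9:120013755-120023598, is the gene of a filamin C binding protein of muscle. Gorasp1, Csrnp1 and Xirp1 were not analysed here, and which of the genes the reads came from cannot be told from the counts.

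The likenesses of the low genes were weak. Vcl was at 0.41 with Jmjd1c and 0.38 with Hivep2, and within fast 2X cells at 0.45 with Jmjd1c and 0.42 with Airn. Sync was nearest to Tiam2 (0.34), Kmt2e (0.34) and Malat1 (0.32), and within fast 2X cells to Tiam2 (0.40), Kmt2e (0.38) and Usp34 (0.37). After thinning to equal depth, 0 of the first 3 genes stayed for either Sync or Vcl, against 3 for Plec and 2 each for Des, Synm and Flnc.

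The binding partners of these proteins were read from lists in the same comparison of fast 2A with fast 2X cells. Of 20 genes for filaments and proteins around desmin, 16 had enough counts, and 1 was past 1.5-fold higher and 1 lower in fast 2A, beside 2.57% and 7.43% of all genes tested, with a median log2 ratio of 0.10. Ank2, an ankyrin that organizes costamere components, was the highest at 1.25 (409 against 172 CPM, above the fast 2X median in 48 of 51 fast 2A cells). Vim, the filament gene of fibroblasts and endothelium, was the lowest at -1.19 (14.0 against 32.0 CPM), and at -0.85 without the 8 cells, with 22 of 51 fast 2A cells above the fast 2X median. Dmd, the dystrophin gene, had the most counts and was at 0.15 (2075 against 1865 CPM). Cryab, the small heat shock protein that guards desmin, was at 0.34 and Nes, the nestin gene, at -0.03, both named after their values were seen.

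Of the 17 genes with enough counts in the filamin and Z-disc list, out of 19 measured, 5 were past 1.5-fold higher and 2 lower in fast 2A, beside 2.57% and 7.43% of all genes tested, around a median of 0.01. Myoz2, a calsarcin of slow and oxidative fibers, was the highest at 1.51 (783 against 275 CPM), and Actn3, the alpha-actinin of fast fibers, the lowest at -1.74 (737 against 2457 CPM), with 0 of 51 fast 2A cells above the fast 2X median. Xirp2, a filamin C and actin binding protein with the most counts of the list, was at 0.68 (3939 against 2452 CPM). The other genes past the fold were Hspb7 at 1.00, Actn2 at 0.74 and Myot, the myotilin gene, at 0.64, and on the lower side Myoz1, the fast calsarcin, at -0.78. Flna, a filamin of other cells, was low at 7.40 CPM.

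The adhesion list around vinculin had 1 of 17 genes past 1.5-fold higher and 1 lower, close to the 10.0% of all genes past it in either direction, and a median of -0.14. Zyx, the zyxin gene of focal adhesions, was at 0.77 (26.8 against 15.7 CPM) but had only 29 of 51 fast 2A cells above the fast 2X median. Actn1, a nonmuscle alpha-actinin, was at -0.61 (9.57 against 14.7 CPM), and at -0.36 without the 8 cells. The talin genes Tln1 and Tln2 were at -0.12 and 0.10, and Itgb1, the shared integrin subunit, at -0.14.

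**Figure D5:**
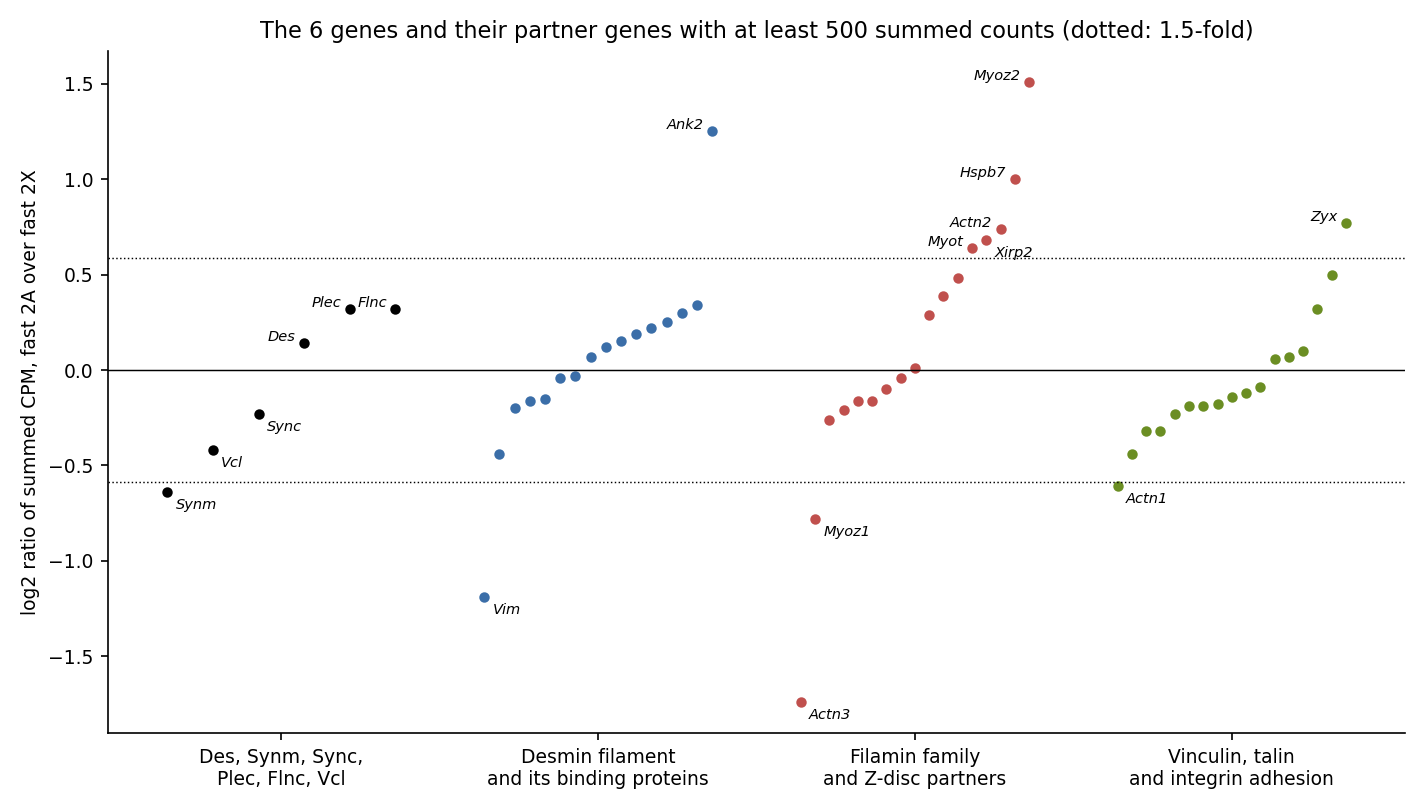
Log2 ratio of summed CPM in fast 2A over fast 2X cells for the 6 genes and for the partner genes with at least 500 summed counts, 1 point a gene, sorted within each list. Dotted lines mark 1.5-fold and partner genes past it are named. The filamin and Z-disc list reaches from -1.74 (Actn3) to 1.51 (Myoz2), while most genes around desmin and vinculin lie between the dotted lines.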

How the data were processed

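The deposited table held UMI counts per gene and cell, which the authors made with zUMIs at default settings (STAR 2.5.4b and featureCounts, mm10/GRCm38 with spike-in sequences). Its first 10 rows annotate the cells and were set apart from the gene counts. No model was fitted to compare the classes, and the limits rest on counting error alone. Cells were sorted singly into wells and no doublet caller was run. The submitters' processing notes also name Cell Ranger 3.1.0. Counts were summed over cells of a class and scaled to CPM of all gene counts, with exact Poisson limits. Ratios had exact conditional binomial limits (scipy 1.17.1, numpy 2.4.6, pandas 2.3.3). The ratio limits were tried on simulated Poisson counts, the model behind them, so the trial does not cover spread among cells. TMM was computed by an own implementation. Genes with at least 500 summed counts were compared, and likeness used at least 5000. Named were the 6 genes, the 3 nearest genes of each, and the highest, lowest and most abundant gene of each list, while other list genes were named after their values were seen. Some genes that this rule names are not reported here. The exclusion of 8 cells was added after seeing the data. Members and lists were chosen with earlier results of these data known.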

Additional observations from a re-analysis of the deposited data

How the results depend on the processing

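Under 16 alternatives each, Des, Synm, Plec, Flnc and Vcl kept the direction of their log2 ratio of fast 2A over fast 2X and Sync did not in 3, and Synm was past 1.5-fold in 11. With 1 lane left out at a time, Des ran from 0.01 to 0.27, Synm from -0.73 to -0.55, Sync from -0.46 to -0.01, Plec from 0.19 to 0.43, Flnc from 0.27 to 0.39 and Vcl from -0.71 to -0.12. TMM scaling gave 0.25 for Des, -0.53 for Synm, 0.43 for Plec and 0.43 for Flnc. The mean over cells gave 0.22, -0.56, 0.36 and 0.37 for these genes in the same order, and the median 0.19, -0.57, 0.35 and 0.47, with 0.09 for Sync. Without the 8 cells of low myofiber markers, the mean gave 0.18 for Des, -0.59 for Synm, 0.00 for Sync and -0.13 for Vcl. With mitochondrial genes out of the totals the values were 0.18 for Des, 0.35 for Plec and 0.35 for Flnc, and with Ttn and Acta1 out as well 0.20 for Des, -0.59 for Synm, 0.37 for Plec and 0.37 for Flnc. Thinned cells gave 0.18 for Des, -0.56 for Synm, 0.20 for Sync, 0.35 for Plec and 0.36 for Flnc. A mitochondrial limit of 10% gave 0.36 for Plec and 0.35 for Flnc, and a minimum of 10000 genes gave 0.10 for Des and 0.27 for Plec. Leaving out cells whose leading Myh genes lay within 10 percentage points gave -0.62 for Vcl. A leading gene of at least 70% gave 0.09 for Des, -0.74 for Synm, 0.35 for Plec, 0.21 for Flnc and -0.95 for Vcl, from 23 fast 2A and 65 fast 2X cells. The cause of these shifts was not tested.

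With 1 lane left out, the list around desmin had 1 to 2 genes higher and 0 to 2 lower, and the vinculin list 0 to 2 lower. The vinculin list had 2 genes higher and 0 lower under TMM, 0 higher by the mean over cells, 0 higher and 2 lower over thinned counts, and 0 lower without the 8 cells. The share of all genes past 1.5-fold was 18.4% with at least 100 summed counts and 8.69% with at least 2000. Kept cells over cells left out, with mitochondrial genes out of the totals, gave 0.68 for Des, 0.68 for Synm, 0.17 for Sync, 0.24 for Plec, 0.70 for Flnc and -0.40 for Vcl. No analysis paired by animal was possible because all cells came from 1 mouse, and within lanes and plates the classes were compared by ratios only. With 1 mouse, no statement reaches beyond these cells, and the counts of Sync (1045 in all) and Vcl (2843) limit what they can show.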

Other observations

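Levels were also read by depth within a class. In the fast 2A cells, split into 3 equal sets of 17 by total counts, Plec had 1434 CPM in the shallowest set, 1301 CPM in the middle and 1151 CPM in the deepest, and Des had 2457, 2355 and 2061 CPM in the same order. In the fast 2X cells, in sets of 39, Plec had 1003, 1093 and 949 CPM and Des 1843, 2166 and 1942 CPM. Vcl was lower in the deeper sets of both classes, at 57.6, 45.6 and 39.4 CPM in fast 2A and 68.2, 60.1 and 56.5 CPM in fast 2X cells. Over single fast 2X cells, however, the Spearman correlation of Vcl with total counts was 0.05, and 0.15 without the cells of low myofiber markers. The shallowest fast 2X set held such cells, with 28827, 39394, 40124, 120365 and 124414 counts, and the sets were not read without them. Synm in fast 2A cells had 553, 536 and 552 CPM. Over the 171 cells, the mitochondrial percent had a Spearman correlation of -0.29 with Des and -0.28 with Flnc, and of 0.08 with Plec. Total counts had one of -0.19 with Plec. The median total was 206510 counts in fast 2A and 255726 in fast 2X cells, and cells of matched total were not compared between the classes.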
